A study of Mus musculus with 19 samples.

Results

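The enzymes that build fatty acids, together with genes that use or store them, were followed in mouse lung organoids by the rows for Acly, Acaca, Fasn, Scd1, Pank3, Cers6 and Hilpda in the lists of translated open reading frames (ORFs). Of these 7 genes asked for, 6 had a row, out of 7379 genes with a listed ORF in any library, and Acaca had none, so it has no value below. For each of the 6, the estimated counts of its listed transcripts were summed in every footprint and RNA library. Alveolar type 2 (AT2) organoids were compared with lung adenocarcinoma (LUAD) organoids in ribosome footprints, in RNA and in footprints per RNA. In this comparison Scd1 was lower in LUAD in both measurements and Hilpda was higher in both. Pank3 and Cers6 had less RNA in LUAD but more footprints per RNA, and Fasn and Acly did not pass any of the 3 tests.

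All organoids were of the C57BL/6 mouse strain, were grown in lung organoid medium on Matrigel-washed plates and were harvested 48 h after plating, with 100 µM cycloheximide, a blocker of translation elongation, for 5 min. There were 3 AT2 and 4 LUAD footprint libraries, made with RiboLace, a pull-down of translating ribosomes. The RNA set also held 3 AT2 and 4 LUAD libraries, and separate ORF lists came from 2 AT2 cultures and 3 tumor-derived organoids. The labels give no age, no driver alleles of the tumors and no purity of the AT2 cultures, and the titles of the tumor ORF libraries read KP without saying what that stands for. The series' design text says that the ORF cultures were independent, and nothing says whether the footprint and RNA libraries were, so p-values for those measure no more than the spread among the libraries at hand, and that spread may be technical.

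Fatty acid synthesis starts in the cytosol, where ATP-citrate lyase (Acly) turns citrate into acetyl-CoA. Acetyl-CoA carboxylase (Acaca) makes malonyl-CoA from it, fatty acid synthase (Fasn) assembles palmitate from both, and stearoyl-CoA desaturase (Scd1) inserts a double bond to give monounsaturated fatty acids. Pantothenate kinase 3 (Pank3) catalyses the first step of coenzyme A synthesis, the carrier on which all of these acyl groups travel. Ceramide synthase 6 (Cers6) joins a fatty acyl-CoA to a sphingoid base, and Hilpda is a small protein of lipid droplets, known as a hypoxia-inducible gene, that restrains triglyceride breakdown. AT2 cells are known for high lipid synthesis because they make surfactant, a lipid film rich in dipalmitoyl phosphatidylcholine.

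Depth ran from 3030290 to 14249573 estimated counts in the footprint libraries and from 4122819 to 33203742 in the RNA libraries, and LUAD libraries were the deeper ones in both. A single gene, Mettl26, held 52.1% of the counts of genes with a listed ORF in AT2 footprint library 1, against 0.261% to 4.14% in the other footprint libraries. The libraries also fell into 2 sets by their deviations from the group means, which the labels do not describe. Set 1 held footprint libraries AT2 1, LUAD 1 and LUAD 2 and RNA libraries AT2 1, AT2 2, LUAD 1 and LUAD 2, and set 2 held the rest. Fits below with a term for library set take these sets from the same data. Such a term removes spread by construction, and in footprints it called 2873 genes against 1447 in the reported fit. Passing with that term is therefore no separate support. Of 16 AT2 markers, 8 had a listed ORF and 7 were tested, and 5 of them fell in LUAD in both footprints and RNA, while Muc1 rose in RNA. Nkx2-1 RNA was 191 to 449 CPM in AT2 (CPM is a gene's count as a rate of the library size, scaled between libraries) and at most 0.377 CPM in LUAD, and Sftpb RNA was 68.5 to 228 CPM against at most 0.538 CPM. Other AT2 markers, Sftpc among them, are not analysed here. Of 12 AT1 markers 7 had a listed ORF and 6 were tested, of which 4 fell and 1 rose in RNA, and the summed AT1 level in RNA was 2580 to 6640 CPM in AT2 and 308 to 347 CPM in LUAD. Of 17 macrophage and leukocyte markers only Cd14 and Mrc1 had a listed ORF; both rose, with a summed footprint level of 8.68 to 8.89 CPM in AT2 and 77.6 to 101 CPM in LUAD. Fibroblast markers had 2 of 12 with a listed ORF, of which Fn1 passed in neither measurement and Bgn rose in both, with RNA of at most 1.55 CPM in AT2 and 198 to 412 CPM in LUAD. Adipocyte and lipofibroblast markers had 1 of 9, Lipe, which passed in neither. Club, ciliated and basal markers had 1 of 10, the tubulin gene Tubb4b, which rose in RNA from 479 to 929 CPM in AT2 to 1030 to 1890 CPM in LUAD and did not pass in footprints. The part of other cells in the results that follow was not tested, and in such bulk samples fewer cells of a type and less RNA per cell cannot be told apart.

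Acly (chromosome 11, 100476352 to 100528000, GRCm38.p6), which supplies the acetyl-CoA, passed the test in neither measurement. Its footprints were at 338, 506 and 411 CPM in AT2 and at 547, 540, 566 and 562 CPM in LUAD. The LUAD libraries all lay above the AT2 libraries and close to each other. The means were 418 ± 84.3 CPM (SD, n = 3) and 554 ± 12.1 CPM (SD, n = 4). The log2 fold change of footprints, LUAD against AT2, was 0.40 ± 0.19 (SE), with an adjusted p of 0.168 (edgeR's quasi-likelihood test, Benjamini-Hochberg over all genes tested), so the difference did not pass the threshold of 0.05. It passed in DESeq2 (log2 fold change 0.42, adjusted p = 0.0498). With a term for library set, drawn from these same data, it passed too (0.45, adjusted p = 0.0258). Acly RNA was at 249, 228 and 184 CPM in AT2 and at 321, 268, 175 and 187 CPM in LUAD. The RNA groups overlapped, and set 1 libraries were the higher ones in both. The RNA log2 fold change was 0.11 ± 0.24 (SE, adjusted p = 0.745), with a 95% interval of -0.44 to 0.66. Within sets 1 and 2 the log2 values were 0.30 and -0.02 in RNA and 0.69 and 0.30 in footprints.

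Fasn (chromosome 11, 120805958 to 120825166, GRCm38.p6) passed the test in neither measurement, and its footprint level was the closest between the organoids among the members tested. Footprints were at 1000, 1120 and 1070 CPM in AT2 and at 1180, 1090, 1050 and 993 CPM in LUAD, and the groups overlapped fully. The footprint log2 fold change was 0.02 ± 0.17 (SE, edgeR adjusted p = 0.958), with a 95% interval of -0.37 to 0.40, and the value was 0.18 within set 1 and -0.10 within set 2. Its RNA was at 288, 287 and 147 CPM in AT2 and at 206, 195, 125 and 120 CPM in LUAD. The third AT2 library lay below 2 of the LUAD libraries, and in each organoid type the set 2 libraries held less Fasn RNA than the set 1 libraries. The RNA log2 fold change was -0.58 ± 0.30 (SE, adjusted p = 0.159). Within set 1 it was -0.52 and within set 2 it was -0.27. A pairing of same-numbered RNA libraries is borne out only in part and cannot be told apart from library set. With them as a block, the value was -0.43 and passed the test (edgeR adjusted p = 0.041). It also passed without RNA library AT2 3 (-0.83, adjusted p = 0.0297) and in the fit with a term for library set (-0.42, adjusted p = 0.00461), whereas limma on log2(TPM + 1) gave 0.11 (adjusted p = 0.805). A retained-intron transcript of Fasn held 3.64 to 13.6 TPM of its RNA in AT2 and 15.3 to 29.6 TPM in LUAD. Summed over protein-coding transcripts alone, the RNA value was -0.77 (edgeR adjusted p = 0.0928).

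Scd1 (chromosome 19, 44394450 to 44407709, GRCm38.p6), the desaturase, was the member that fell in both measurements. Its footprints were at 1260, 980 and 919 CPM in AT2 and at 287, 270, 237 and 237 CPM in LUAD. The highest LUAD library was far below the lowest AT2 library. The means were 1050 ± 183 CPM (SD, n = 3) and 258 ± 25.3 CPM (SD, n = 4), 4.09-fold lower in LUAD, with a log2 fold change of -2.03 ± 0.19 (SE, edgeR adjusted p = 0.000559). In RNA, Scd1 was at 1070, 952 and 532 CPM in AT2 and at 103, 112, 102 and 81.6 CPM in LUAD. Here the AT2 libraries spread more widely, with set 2 at the low end, and the groups were still far apart. The RNA log2 fold change was -3.09 ± 0.25 (SE, adjusted p = 0.000137), 8.53-fold lower in LUAD. Within the library sets the RNA values were -3.23 and -2.53, and the mean footprint level went from 1260 to 279 CPM in set 1 and from 949 to 237 CPM in set 2. In limma on log2(TPM + 1) the footprint call was lost (-1.02, adjusted p = 0.276). That scale is not corrected for Mettl26. The Scd1 footprint level there was 115 TPM in AT2 library 1 against 506 and 441 TPM in the other AT2 libraries. An lncRNA-type transcript of Scd1 held 56.8 TPM against 424 and 368 TPM of this. The protein-coding transcript held 57.8 TPM against 82.7 and 72.5 TPM. The reason for the lost call was not tested.

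Hilpda (chromosome 6, 29272488 to 29275449, GRCm38.p6), the lipid droplet protein, rose in both measurements. Its footprints were at 0.889, 9.92 and 10.6 CPM in AT2, from 1, 24 and 28 counts, and at 41.9, 39.7, 63.9 and 59.9 CPM in LUAD, from 165 to 648 counts. The lowest LUAD library was well above the highest AT2 library, and the AT2 library dominated by Mettl26 stood apart at a single count. The footprint log2 fold change was 2.74 ± 0.56 (SE, edgeR adjusted p = 0.0116), and without that AT2 library it was 2.32 (adjusted p = 0.00271). Hilpda RNA was at 9.13, 8.98 and 8.92 CPM in AT2 and at 161, 156, 211 and 189 CPM in LUAD. Among the AT2 libraries the RNA level hardly differed, and all LUAD libraries were far above it. The RNA log2 fold change was 4.31 ± 0.20 (SE, adjusted p = 1.16e-05), 19.8-fold higher in LUAD, and the sets gave 4.13 and 4.49 in RNA and 2.59 in footprints for set 2, where the AT2 libraries hold more than 1 count. Compared per length, in TPM (a rate corrected for transcript length), mean Hilpda RNA went from 8.27 ± 1.88 TPM in AT2 (SD, n = 3) to 145 ± 3.16 TPM in LUAD (SD, n = 4), while mean Scd1 RNA went from 137 ± 51.5 to 19.9 ± 3.34 TPM. The member with the highest RNA level per length was therefore Scd1 in AT2 and Hilpda in LUAD. RNA levels per length of the other members were lower, with Acly at 37.7 and 39, Fasn at 29.5 and 32.4, Pank3 at 4.06 and 1.72 and Cers6 at 2.9 and 0.775 TPM in AT2 and LUAD. Acly and Fasn lay within each other's spread between libraries in both organoid types, but within a library Acly was the higher of them in 7 of 7, by 1.06-fold to 1.56-fold. The Fasn level includes a retained-intron transcript, at 3.64, 13.6 and 11.4 TPM in AT2 RNA. In LUAD RNA that transcript held 29.6, 26.2, 16.7 and 15.3 TPM, most of the Fasn level. In counts, which are not corrected for length, it held 1.4%, 5.1% and 10.9% of Fasn RNA in AT2. Its share of LUAD RNA counts was 16.2%, 15.3%, 18.9% and 17.3%. At most 0.5% of Fasn footprint counts in any library fell on it.

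The sequence upstream of Hilpda is shown because it was the member with the largest RNA change. RefSeq lists 2 start sites for it, and the 250 bases before the second one (GRCm38.p6, plus strand, chr6:29272376-29272625) hold the hypoxia response core ACGTG once, 43 bases before the start, in capitals:
Hilpda: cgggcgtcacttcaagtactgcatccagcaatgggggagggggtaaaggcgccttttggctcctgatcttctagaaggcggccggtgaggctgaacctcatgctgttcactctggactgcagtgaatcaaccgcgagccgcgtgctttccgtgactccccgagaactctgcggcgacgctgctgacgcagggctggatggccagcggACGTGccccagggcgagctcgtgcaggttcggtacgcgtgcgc
The window before the other start site, chr6:29272238-29272487, holds none of the 4 motifs searched on both strands, ACGTG, the E-box CACGTG (which contains ACGTG), the sterol regulatory element TCACNCCAC and the CCAAT box. Of 32851 mouse promoter windows of 250 bases in the same RefSeq table, 16.6% hold ACGTG, 6.0% CACGTG, 1.1% TCACNCCAC and 33.8% CCAAT. A match says only that these letters occur there.

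**Figure D1:**
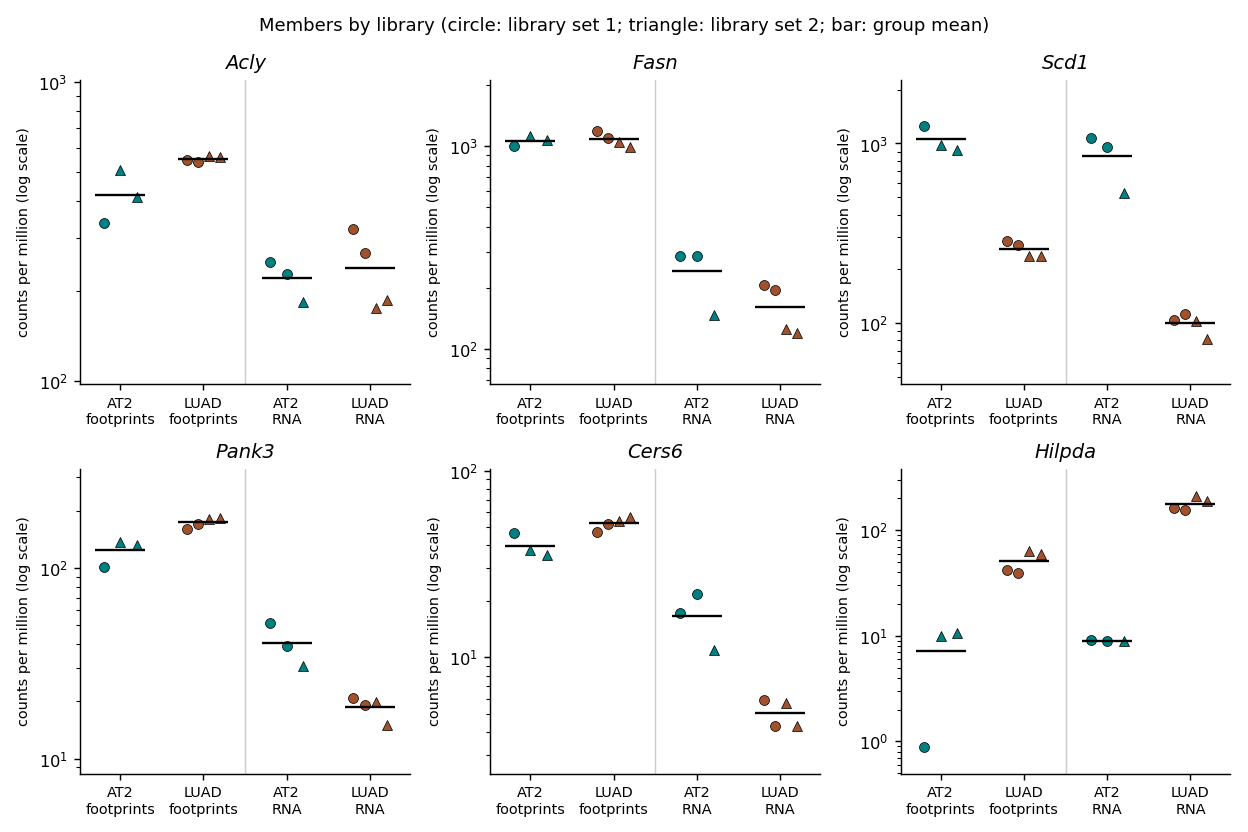
Level of each member in each library, in CPM on a log axis, for AT2 and LUAD footprints and RNA; circles are set 1 libraries, triangles set 2 libraries and bars group means. Scd1 falls from 1050 to 258 CPM in footprints while Hilpda RNA rises from 9.01 to 179 CPM, and Pank3 and Cers6 fall in RNA only.

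Pank3 (chromosome 11, 35769495 to 35791285, GRCm38.p6) had less RNA in LUAD without fewer footprints. Its RNA was at 51.4, 39.1 and 30.7 CPM in AT2 and at 20.9, 19.2, 19.8 and 15.0 CPM in LUAD, and the groups did not overlap. The RNA log2 fold change was -1.11 ± 0.24 (SE, edgeR adjusted p = 0.00835), 2.16-fold lower in LUAD. Footprints went the other way, from 102, 137 and 133 CPM in AT2 to 161, 171, 181 and 184 CPM in LUAD, again without overlap. That footprint difference, a log2 fold change of 0.49 ± 0.17 (SE), missed the threshold (adjusted p = 0.084). It passed with DESeq2 (0.50, adjusted p = 0.0137), with library sizes taken over all transcripts (0.65, adjusted p = 0.0303) and in the fit with a term for library set (0.53, adjusted p = 0.00726). Within the sets the RNA change was -1.17 and -0.81 and the footprint change 0.70 and 0.43.

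Cers6 (chromosome 2, 68861145 to 69114284, GRCm38.p6) showed the same arrangement at a lower level. Its RNA was at 17.4, 22.0 and 10.9 CPM in AT2, from 28 to 159 counts, and at 5.91, 4.30, 5.70 and 4.29 CPM in LUAD, from 76 to 143 counts. All LUAD libraries were below the lowest AT2 library, which was the shallowest RNA library. The RNA log2 fold change was -1.73 ± 0.38 (SE, edgeR adjusted p = 0.00932), 3.33-fold lower in LUAD. With the replicate block this call was lost (-1.62, adjusted p = 0.0592), and the sets gave -1.95 and -1.12. Cers6 footprints were at 46.2, 37.6 and 35.2 CPM in AT2 and at 46.9, 51.7, 53.9 and 56.7 CPM in LUAD. The highest AT2 library was just under the lowest LUAD library. The footprint log2 fold change was 0.41 ± 0.21 (SE, adjusted p = 0.203), so no footprint difference passed the test, with a 95% interval of -0.07 to 0.88, and the sets gave 0.09 and 0.60.

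Since Cers6 and Pank3 moved together, their upstream windows of 250 bases are given side by side, with CCAAT (or ATTGG, its reverse complement) and CACGTG in capitals. They lie on the plus strand at chr2:68861191-68861440 and chr11:35769245-35769494 (GRCm38.p6, RefSeq):
Cers6: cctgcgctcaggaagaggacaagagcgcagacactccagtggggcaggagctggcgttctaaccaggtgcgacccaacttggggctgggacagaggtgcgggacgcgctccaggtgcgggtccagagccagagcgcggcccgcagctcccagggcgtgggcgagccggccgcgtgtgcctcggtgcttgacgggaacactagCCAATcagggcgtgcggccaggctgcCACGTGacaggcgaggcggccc
Pank3: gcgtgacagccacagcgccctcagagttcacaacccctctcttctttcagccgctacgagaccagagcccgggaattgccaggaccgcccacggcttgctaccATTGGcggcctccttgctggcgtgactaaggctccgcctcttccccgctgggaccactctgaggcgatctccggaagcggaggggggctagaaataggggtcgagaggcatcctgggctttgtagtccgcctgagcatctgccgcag
Both windows hold 1 CCAAT box, at 48 and 147 bases before the start site, and Cers6 alone of the pair also holds CACGTG, at 22 bases before it. Neither holds TCACNCCAC. That CACGTG holds ACGTG on both strands. Fasn has 3 CCAAT matches in its window, at 90, 62 and 59 bases before the start site, the last 2 overlapping on opposite strands. Acly has 1 ACGTG. The only Acaca window, chr11:84195188-84195437, held none of the 4 motifs. It lies inside the gene's span of 84129635 to 84401651, so the sequence before the gene's first base was not searched. No window was available for Scd1.

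In all, 2 of the 6 members passed the test in footprints, Scd1 and Hilpda, while 21.2% of the 6811 genes tested did (9.46% higher and 11.8% lower in LUAD). In RNA 4 of 6 passed, Hilpda upward and Scd1, Cers6 and Pank3 downward, against 37.1% of 6937 genes (19.1% higher and 18.1% lower). Members without overlap between AT2 and LUAD libraries numbered 5 of 6 in footprints and 4 of 6 in RNA, where 35.8% and 45.4% of all tested genes were of that kind. The median log2 fold change of all tested genes was -0.02 in footprints and 0.04 in RNA. The members were chosen with earlier results of these data known, and Hilpda and Pank3 entered the sums through LUAD lists. Their counts beside these shares are a description and no test of enrichment.

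**Figure D2:**
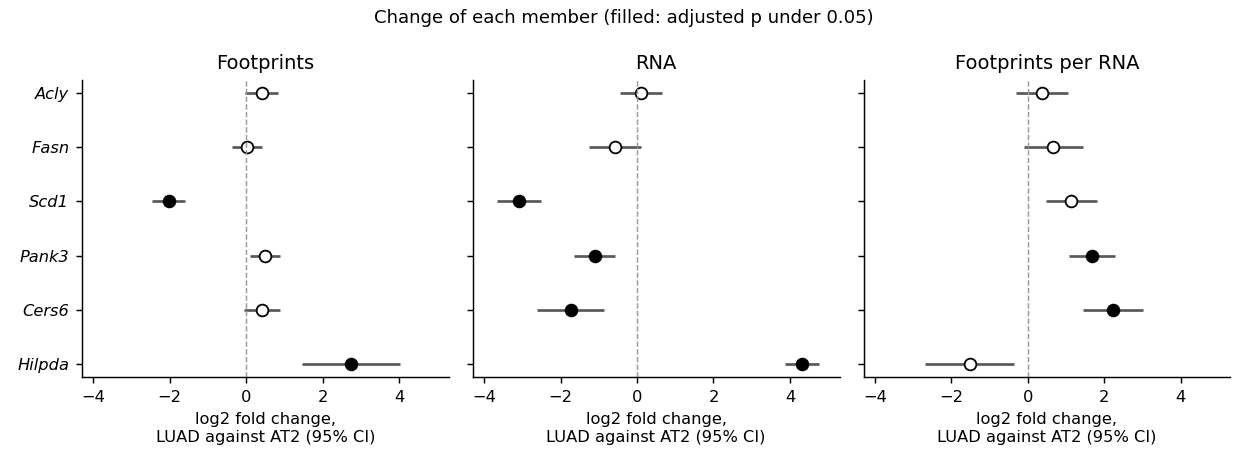
Log2 fold change of each member, LUAD against AT2, with its 95% confidence interval, in footprints, RNA and footprints per RNA; filled points passed the edgeR test at an adjusted p of 0.05. Scd1 and Hilpda are filled in the first 2 panels, and Pank3 and Cers6 are filled in RNA and, on the other side of 0, in footprints per RNA.

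Footprints per RNA, often read as translational efficiency, were compared by the interaction of organoid type and assay in a single edgeR model over the 14 libraries. Cers6 and Pank3 passed and the other 4 members did not, while 0.706% of the 7078 genes tested passed (0.268% higher and 0.438% lower in LUAD). Here too the members were chosen with earlier results known. RNA and this ratio share the RNA libraries, so a low RNA value in LUAD raises the ratio by construction. For Cers6 the ratio of mean footprint to mean RNA level was 2.28 in AT2 and 10.5 in LUAD. Over every pairing of a footprint library with an RNA library, the ratio ran from 1.56 to 4.03 in AT2 and from 8.01 to 13.5 in LUAD, without overlap. The difference was 2.22 ± 0.37 on the log2 scale (SE, adjusted p = 0.0203). For Pank3 the ratio was 2.97 in AT2, with a range of 1.89 to 4.33, and 9.47 in LUAD, with a range of 7.77 to 12.6. Its difference was 1.68 ± 0.28 (SE, adjusted p = 0.0203). Both calls were close to the threshold: the 14 fits that leave out 1 library gave 1.98 to 2.44 for Cers6 (adjusted p = 0.00601 to 0.058) and 1.46 to 1.83 for Pank3 (adjusted p = 0.00601 to 0.0551). Both were lost without footprint library LUAD 2 (Cers6 2.21, adjusted p = 0.058, and Pank3 1.68, adjusted p = 0.0505), LUAD 3 (2.23 with 0.0507, and 1.68 with 0.0548), or RNA library AT2 1 (2.21 with 0.0505, and 1.46 with 0.054), AT2 2 (1.98 with 0.0547, and 1.70 with 0.0539) or LUAD 2 (2.12 with 0.0551, and 1.65 with 0.0551). Cers6 alone was lost without footprint library AT2 3 (2.16, adjusted p = 0.0575). Its call was also lost when only protein-coding transcripts were summed (2.46, adjusted p = 0.097), and both were lost in limma on log2(TPM + 1), with 1.95 (adjusted p = 0.0983) for Cers6 and 1.90 (adjusted p = 0.124) for Pank3.

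The remaining members had ratios that moved less. Scd1 rose from 1.19 to 2.63 footprints per RNA, a log2 difference of 1.14 ± 0.31 (SE, edgeR adjusted p = 0.121). Hilpda went from 0.768 to 0.292, a log2 difference of -1.52 ± 0.54 (SE, adjusted p = 0.208), so its footprints rose by less than its RNA, by a margin that did not pass. In the fit without the AT2 footprint library dominated by Mettl26 both passed, at 1.26 (adjusted p = 0.0458) for Scd1 and -1.95 (adjusted p = 0.00808) for Hilpda, and Scd1 also did without RNA library AT2 3 (1.39, adjusted p = 0.017) and with a term for library set (0.97, adjusted p = 0.0129). Both passed as well in DESeq2 (1.10, adjusted p = 0.0191, and -1.57, adjusted p = 0.0197). Fasn had the highest ratio in AT2, 4.27, and 6.78 in LUAD, with a log2 difference of 0.67 ± 0.35 (SE, adjusted p = 0.426) and overlapping ranges; with a term for library set it passed (0.51, adjusted p = 0.0423). Acly went from 1.83 to 2.37 (0.37 ± 0.31, SE, adjusted p = 0.655).

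**Figure D3:**
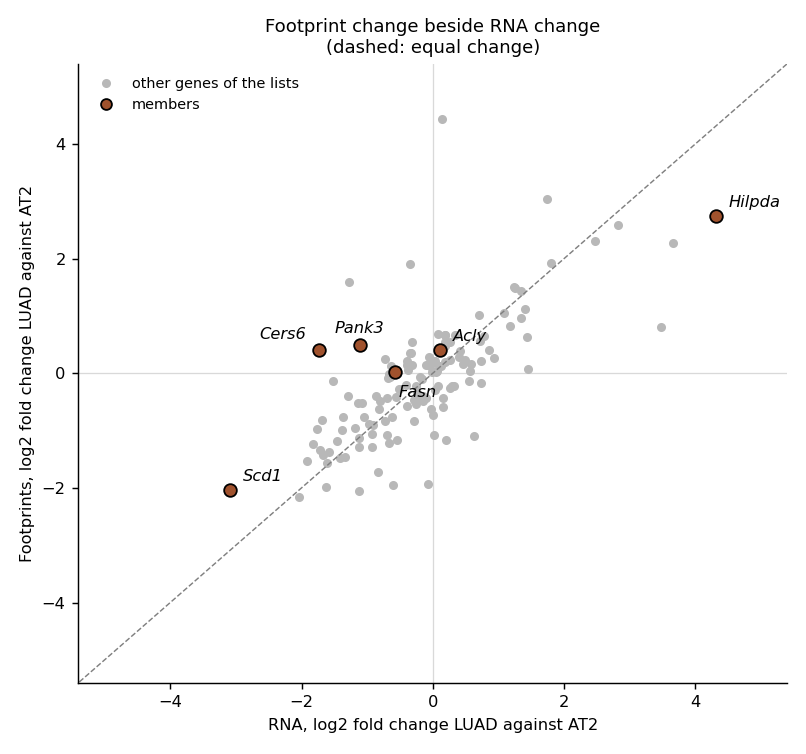
Log2 fold change of footprints (vertical) beside that of RNA (horizontal), LUAD against AT2, for the 6 members and 133 other genes of the lipid lists; the dashed line marks equal change. Cers6 and Pank3 lie above the line at RNA values of -1.73 and -1.11, and Hilpda lies below it at 4.31.

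The footprints of Scd1 and Cers6 were divided among transcript types that RNA hardly filled. Scd1 has a protein-coding transcript and an lncRNA-type transcript with a listed ORF. The lncRNA-type transcript took 12.8%, 43.5% and 43.2% of Scd1 footprint counts in AT2 and 30.4%, 27.9%, 63.6% and 60.6% in LUAD, but at most 7.5% of its RNA counts in any library. Within each organoid type the set 2 footprint libraries gave it the larger share. For Cers6 a retained-intron transcript took 19.2%, 62.6% and 69.2% of the footprint counts in AT2 and 29.1%, 30.5%, 39.2% and 48.2% in LUAD. In RNA that transcript had 33.3% in AT2 library 3, 10.1% in LUAD library 4 and 0.0% in the others. How reads were split between overlapping transcripts is uncertain, and isoforms without a listed ORF are not in these sums. Summed over protein-coding transcripts alone, the Scd1 footprint change was -2.35 (edgeR adjusted p = 0.0084) and the Cers6 RNA change -1.67 (adjusted p = 0.025).

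**Figure D4:**
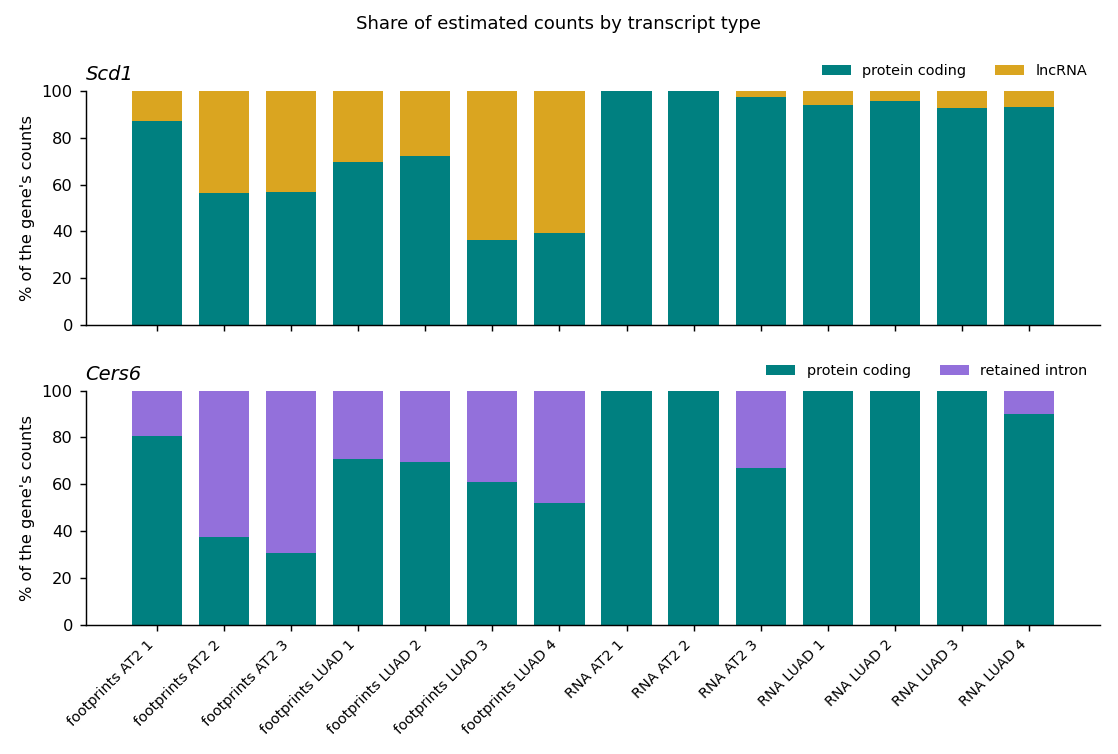
Percent of the estimated counts of Scd1 and Cers6 that fell on protein-coding, lncRNA-type and retained-intron transcripts, by library. The lncRNA-type share of Scd1 footprints runs from 12.8% to 63.6% and the retained-intron share of Cers6 footprints from 19.2% to 69.2%, while most RNA libraries have the protein-coding type alone or nearly so.

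The ORF lists, from other libraries, show which reading frames of these genes were called as translated. AT2 culture 1 listed 1 member and AT2 culture 2 listed 4, while LUAD organoids 1 to 3 listed 4, 6 and 3. Of the 7379 genes with a listed ORF, these lists held 1558 and 2165 in AT2 and 5212, 3646 and 2613 in LUAD. The member counts are thus a description beside lists of unlike size. Over listed ORFs, P-sites (positions of the ribosome's peptidyl site) summed to 106021 and 262958 in AT2 and to 4460415, 769638 and 612996 in LUAD. These sums cover only ORFs that were listed, so they do not measure sequencing depth. The part of depth in what was listed was not tested. Acly was listed in all 5 libraries, with 161 and 78 in-frame P-sites on its 1091-codon annotated ORF in AT2 and 641, 194 and 228 in LUAD. Scd1's annotated ORF of 355 codons was listed in AT2 culture 2, at 49.6 RPKM in the authors' table, and in all 3 LUAD organoids, at 27.3, 29.5 and 21.7 RPKM. The annotated Fasn ORF of 2504 codons appeared in the 3 LUAD organoids, with 1457, 396 and 431 in-frame P-sites, whereas AT2 culture 2 listed only short internal and retained-intron ORFs of Fasn, with 7 to 10 in-frame P-sites. Hilpda was listed in LUAD organoids 1 and 2 alone, as an ORF of 64 codons and a longer one of 95 codons that ends at the same stop; in organoid 1 both held 67 in-frame P-sites. Pank3 was listed in LUAD organoid 2, with 33 in-frame P-sites on 370 codons. Cers6 was listed in AT2 culture 2, with 12 in-frame P-sites on its annotated ORF of 384 codons, and in LUAD organoid 2 only on the retained-intron transcript, with 6. With 2 libraries against 3, an exact permutation test cannot go below p = 0.1, and none was run. Hilpda and Pank3 thus entered the count sums through LUAD lists.

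Some close relatives of the members are given beside them, while Pank2, Pank4 and Acss2, which had a listed ORF, are not reported here. Scd2, another stearoyl-CoA desaturase, had RNA at 943 ± 415 CPM in AT2 (SD, n = 3) and 427 ± 25.3 CPM in LUAD (SD, n = 4), a log2 fold change of -1.14 ± 0.30 (SE, edgeR adjusted p = 0.0189). That call was lost without RNA library AT2 1 (-0.96, adjusted p = 0.0763) or AT2 2 (-0.94, adjusted p = 0.0804), and Scd2 footprints changed by -0.52 ± 0.28 (SE, adjusted p = 0.235). Pank1, another pantothenate kinase, had RNA at 39.9 ± 6.52 CPM in AT2 (SD, n = 3) and 16.3 ± 3.21 CPM in LUAD (SD, n = 4), and fell by 1.29 on the log2 scale (edgeR adjusted p = 0.00421). Its footprints changed by -0.40 (adjusted p = 0.265) and its footprints per RNA by 0.97 (adjusted p = 0.197). Cers5 had an RNA value of -0.26 (adjusted p = 0.329) and a footprint value of -0.54 (adjusted p = 0.13). Plin2, the coat protein of most lipid droplets, had an RNA value of -0.82 (adjusted p = 0.119) and a footprint value of -0.63 (adjusted p = 0.244). With a term for library set, Scd2 footprints (-0.53, adjusted p = 0.047), Cers5 RNA (-0.32, adjusted p = 0.0163) and Plin2 RNA (-0.87, adjusted p = 0.0379) passed. Scd3, Scd4, Acacb and G0s2 had no listed ORF.

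Among other genes of synthesis, elongation and desaturation, 2 rose and 4 fell of 19 tested in footprints, and 3 rose and 5 fell of 20 in RNA, where 21.2% and 37.1% of all tested genes passed in either direction. Leaving out 1 library gave 1 to 3 higher and 3 to 4 lower in footprints. In RNA it gave 3 higher and 3 lower without library AT2 2 and 6 higher and 7 lower without AT2 3. Limma on log2(TPM + 1) called 2 of the 19 in footprints, both higher. Fads3, a member of the fatty acid desaturase family, fell from 675 ± 75.7 to 170 ± 5.97 CPM in footprints (SD, n = 3 and 4, log2 fold change -1.99, edgeR adjusted p = 0.000357) and by 1.62 on the log2 scale in RNA (adjusted p = 0.000271). Elovl1, an elongase of very long chains, fell by 1.29 in footprints (adjusted p = 0.00794). Idh1, which makes cytosolic NADPH, rose by 1.48 in footprints (adjusted p = 0.00987) and by 1.26 in RNA (adjusted p = 0.011). Of the regulators of synthesis, 1 of 23 passed in footprints and 4 of 24 in RNA, against the same 21.2% and 37.1%. Without footprint library AT2 1 there were 5, and in RNA there were 1 without AT2 2, 2 without AT2 1 and 6 without AT2 3. Srebf1, the transcription factor of lipogenesis, had values of 0.55 in footprints (adjusted p = 0.47) and 0.19 in RNA (adjusted p = 0.633), and Hif1a had 0.12 (adjusted p = 0.755) and -0.04 (adjusted p = 0.868). Summed over transcripts with an annotated ORF listed in both organoid types, Hif1a footprints passed at 0.83 (adjusted p = 0.0322). Insig1, which holds SREBP precursors back, had -0.70 in RNA (adjusted p = 0.0595), and -0.95 (adjusted p = 0.00293) without RNA library AT2 3; in DESeq2 it passed too (-0.70, adjusted p = 0.031). Mlxipl and Thrsp had no listed ORF.

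Of lipid droplet and triglyceride genes other than Hilpda, 1 rose and 2 fell of 20 in footprints, and 2 rose and 3 fell of 20 in RNA, so that 3 of 20 and 5 of 20 passed beside 21.2% and 37.1% of all tested genes. Leaving out 1 library gave 0 to 2 higher and 1 to 2 lower in footprints. In RNA 5 rose and 4 fell without library AT2 3, and 1 rose and 3 fell without any 1 of the others. Dgat2, which adds the last acyl chain of triglyceride, rose from 4.98 ± 3.81 to 57.6 ± 1.41 CPM in RNA (SD, n = 3 and 4, log2 fold change 3.66, edgeR adjusted p = 0.00134). Its footprint rise of 2.28 (adjusted p = 0.0178) was lost without any 1 of the LUAD footprint libraries 1 to 4 (2.21, 2.25, 2.37 and 2.35, adjusted p = 0.0518, 0.0565, 0.0528 and 0.0538). Agpat1, an acyltransferase of phosphatidic acid synthesis, fell by 0.84 in RNA (adjusted p = 0.0074). Of sphingolipid genes other than Cers6, 3 rose and 4 fell of 25 in footprints, and 5 rose and 6 fell of 25 in RNA, shares of 7 and 11 in 25 beside the same 21.2% and 37.1%. The lower genes in footprints numbered 1 without any 1 of the LUAD libraries, 2 without AT2 3 and 5 without AT2 1, and library sizes over all transcripts gave 4 higher and 1 lower. Limma called 5 of the 25 in footprints, all higher. In RNA 4 rose and 4 fell without library AT2 2, and 7 rose and 9 fell without AT2 3. Sgms2, a sphingomyelin synthase, rose by 2.31 in footprints (adjusted p = 0.00189) and by 2.47 in RNA (adjusted p = 0.000177), while its paralog Sgms1 fell by 1.46 in RNA (adjusted p = 0.00658). Of coenzyme A genes other than Pank3, 1 fell of 9 in footprints, and 1 rose and 1 fell of 10 in RNA; the one that rose was Vnn1, a pantetheinase, by 1.24 (adjusted p = 0.00658). Of 9 uptake and binding genes, 1 rose and 1 fell in footprints and 2 rose and 1 fell in RNA. Leaving out 1 library moved the counts of these 2 short lists by at most 1 gene in each direction. This took each count of 1 in footprints to 0 in some fits. In either direction together, 1 to 5 uptake and binding genes passed in RNA.

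Fatty acid oxidation is the opposite branch of the pathway. Of its 29 tested genes, 14 fell and 1 rose in footprints, with a median log2 fold change of -0.83, and of 28 tested genes, 14 fell and 1 rose in RNA, with a median of -1.02. Across all tested genes 11.8% fell in footprints and 18.1% in RNA. The list was chosen with earlier results of these data known. Slc25a20, the carnitine carrier of the inner mitochondrial membrane, fell from 26.6 ± 3.82 to 5.99 ± 1.15 CPM in footprints (SD, n = 3 and 4, log2 fold change -2.15, edgeR adjusted p = 0.00394) and by 2.04 in RNA (adjusted p = 0.00103). Mlycd, which breaks down malonyl-CoA, fell by 2.05 in footprints (adjusted p = 0.00213), and Decr1, which handles unsaturated chains, fell by 1.53 in footprints (adjusted p = 0.00378) and by 1.92 in RNA (adjusted p = 0.000174). The genes that rose were Acadl in footprints (0.66, adjusted p = 0.0274) and Hsd17b10 in RNA (0.57, adjusted p = 0.0158). Acadl was lost in 5 of the 7 fits that leave out a footprint library (those without AT2 2 or 3 or LUAD 2, 3 or 4, at 0.62 to 0.68), and Hsd17b10 without RNA library AT2 2 (0.57, adjusted p = 0.0559). Leaving out 1 library gave 10 to 15 lower genes in footprints and 10 to 17 in RNA. In limma on log2(TPM + 1), 0 of the 29 passed in footprints (5 at an unadjusted p under 0.05), with a median of -0.18 beside a median of 0.61 for all genes, and 12 fell in RNA. With the replicate block 9 fell in footprints and 13 in RNA.

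**Figure D5:**
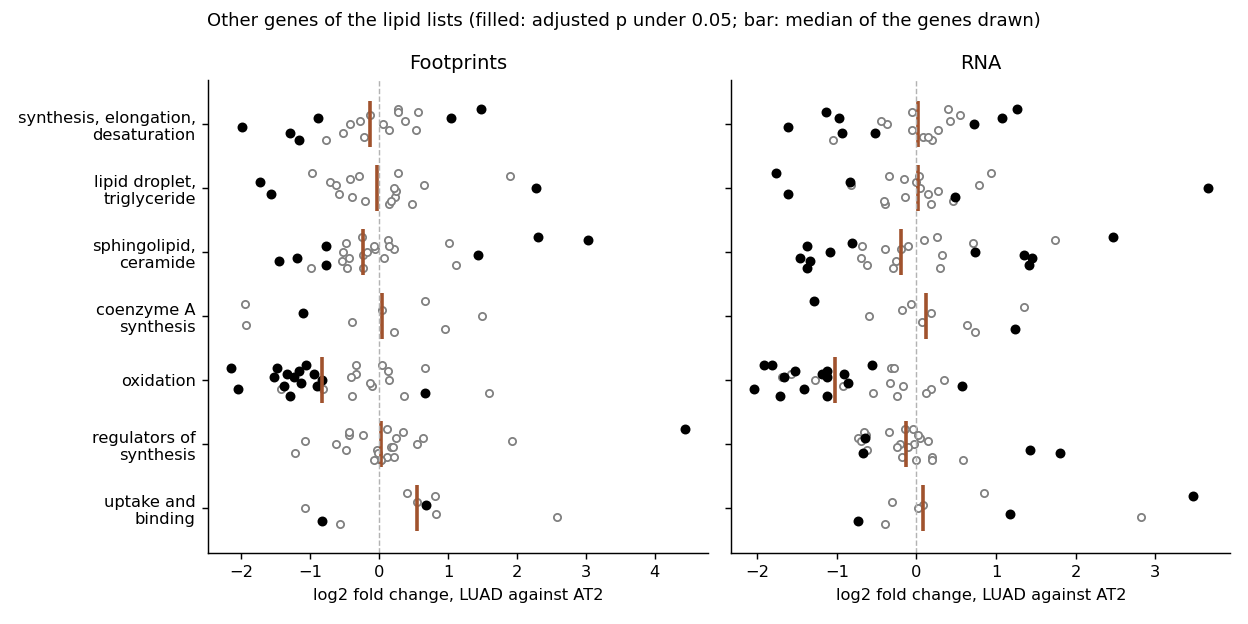
Log2 fold change, LUAD against AT2, of the genes of 7 lipid lists other than the members, in footprints and RNA; each point is a gene, filled points passed the edgeR test at an adjusted p of 0.05 and bars are medians of the genes drawn. The oxidation list has its bar at -0.83 in footprints and -1.02 in RNA.

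Across the 14 footprint and RNA libraries, with each assay centred on its mean, the genes most like each member were found by Pearson's r of log2 CPM among 6134 genes; libraries share depth, set and organoid type, so these are descriptions. Among the genes most like Scd1 were Col4a1 (r = 0.992) and Clstn1 (0.991). Hilpda was most like Ctnnbl1 and Wdr61 (both 0.984) and Pnp (0.983). Fasn was most like Gsn (0.933), Gabarap (0.922) and Ctnnd1 (0.914), and Acly was most like Kbtbd2 (0.888), Aftph (0.887) and Xrn2 (0.878). Cers6 and Pank3 had Ap2b1 in common (0.958 and 0.921), beside Azin1 (0.949) and Slc39a10 (0.941) for Cers6 and Eif4b (0.933) and Zfr (0.912) for Pank3. Among the members, Cers6 and Pank3 were the pair most alike (r = 0.892), and Scd1 and Hilpda ran most nearly opposite (r = -0.946).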

How the data were processed

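The series holds 19 libraries. Per the submitters' processing notes, the authors used kallisto and the mm10 build; no source used here names versions, the transcript release or the ORF caller. The deposited transcript tables give estimated counts and TPM. The deposited ORF lists give P-site counts per frame, RPKM and a combined p-value, none above 0.05. How the RNA libraries were prepared is unclear, since their labels carry the footprint protocol.

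Estimated counts were summed per gene over transcripts with a listed ORF (22509 of 118489; 65.0% to 70.0% of counts), rounded, scaled by TMM and tested with edgeR 4.0.16 in R 4.3.3 (filterByExpr, robust quasi-likelihood, Benjamini-Hochberg over all genes). Footprints per RNA were the interaction term over 14 libraries. The tests were checked on simulated data. No replicate pair agreed within sampling noise (lowest mean chi-square per gene 5.4).

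Same-numbered RNA libraries deviated together (correlations 0.33, 0.26 and 0.36). The labels do not pair them, and each of these pairs also shared a library set, so pairing and set cannot be told apart. RNA library AT2 3 correlated best with LUAD 4. Same-numbered footprint libraries did not all deviate together (0.43, -0.36 and 0.33). Footprint libraries AT2 2 and LUAD 2, at -0.36, were in different sets. Within LUAD, each footprint library also followed the RNA library sharing its number (0.46, 0.53, 0.52 and 0.54). This was not so in every AT2 pair (0.25, -0.20 and 0.25). Footprint and RNA libraries AT2 2, at -0.20, were in different sets, and the other pairs shared a set. The reported footprints per RNA fit leaves same-numbered libraries unpaired, and its replicate block pairs them.

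The members and lists were chosen with earlier results of these data known. Other named genes were past the test with the largest changes in each list, at most 4 per direction with a mean of at least 20 counts, plus close relatives and regulators; some are printed and some are not reported here. Likeness needed a mean of at least 50 counts. Alternatives were other size factors, DESeq2 1.42.0, limma 3.58.1 on log2(TPM + 1), other transcript sums and filters, blocks, left-out libraries, and ORFs with at least 10 in-frame P-sites, which left the members listed at 1, 4, 4, 5 and 3 per library.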

Additional observations from a re-analysis of the deposited data

How the results depend on the processing

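The members that passed in footprints numbered 2 of 6 in the reported fit, 4 in DESeq2, 4 in the fit with a term for library set, and 1 in limma on log2(TPM + 1). With library sizes over all transcripts they numbered 3. In RNA the reported fit gave 4 and the library set term 5, with Fasn added, and in footprints per RNA the reported fit gave 2. For footprints per RNA the count was 4 in DESeq2 and 4 with that term, 1 with protein-coding transcripts only and 0 in limma (4 at an unadjusted p under 0.05). Summing only transcripts with an annotated ORF listed in both organoid types left Scd1 and Acly; Fasn, Hilpda, Cers6 and Pank3 have no such transcript. In those sums 1 of 2 passed in footprints, 1 of 2 in RNA and 0 of 2 in footprints per RNA (0 at an unadjusted p under 0.05). Leaving out 1 library gave 2 to 2 members in footprints, 4 to 5 in RNA and 0 to 4 in footprints per RNA (4 at an unadjusted p under 0.05 where the count was 0). In these fits none of the members that passed changed direction. The library set, protein-coding and Mettl26 alternatives were chosen after seeing the data.

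The replicate block left 2 members called in footprints, 4 in RNA (with Fasn in place of Cers6) and 2 in footprints per RNA (Cers6 2.18, adjusted p = 0.0445, and Pank3 1.66, adjusted p = 0.0482). Over all genes it called 931 against 1447 in footprints and 88 against 50 in footprints per RNA. Other all-gene counts for footprints per RNA were 368 in DESeq2, 513 with the library set, 9 in limma and 26 with transcripts listed in both types; those for footprints were 2873 with the library set and 284 with transcripts listed in both types, and for RNA 614 with the latter. Leaving out 1 library gave 838 to 1894 genes in footprints, 1632 to 3357 in RNA (2575 in the reported fit) and 11 to 418 in footprints per RNA. Library sizes over all transcripts moved the median of all genes to 0.15, 0.20 and 0.28, with 865 higher and 611 lower calls in footprints against 644 and 803, 1798 and 912 in RNA against 1322 and 1253, and 25 and 13 in footprints per RNA against 19 and 31. Limma on TPM moved the footprint median to 0.61. With protein-coding transcripts only, Hacd2 footprints turned from -1.17 to 1.77 (adjusted p = 0.108) and Dbi footprints per RNA turned positive at 8.93 (adjusted p = 0.0217); the cause was not tested. Depth limits Hilpda in AT2 footprints (1 to 28 counts) and Cers6 in RNA (28 to 159 counts).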

Other observations

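Cers6 and Pank3 were among 13 genes, 0.194% of the 6707 tested in both, whose RNA was lower and whose footprints per RNA were higher in LUAD at an edgeR adjusted p under 0.05. The other genes, named after their values were seen, were Ap2b1, Azin1, Btaf1, Eif4b, Hist1h4h, Luzp1, Osbpl9, Ppp3r1, Ptgfrn, Shtn1 and Tnks. Their RNA values ran from -1.98 for Tnks to -0.67 for Ppp3r1. Footprints passed the test for Ppp3r1 alone, which rose by 1.29 (adjusted p = 0.0322); those of Ap2b1 had a value of 0.11 (adjusted p = 0.65), those of Azin1 0.22 (adjusted p = 0.61) and those of Eif4b 0.24 (adjusted p = 0.368). Azin1, the antizyme inhibitor, was among the genes most like Cers6 across libraries, and Eif4b, a translation initiation factor, among those most like Pank3. Likeness was taken over the same libraries with the organoid difference left in, so this is no separate support. The 13 depend on single libraries. In edgeR there were 0 without footprint library LUAD 2 or LUAD 3, or RNA library AT2 1, AT2 2 or LUAD 2 (162 to 277 at unadjusted p values under 0.05). There was 1 without footprint library AT2 3, and 3 to 9 in 6 further fits. Without footprint library AT2 1 there were 105, with all 13 among them, and without RNA library AT2 3 there were 89, with 12 of them. RNA and footprints per RNA share the RNA libraries, so a low RNA value in LUAD lowers the one and raises the other by construction.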
